A study of Bos taurus with 5 samples.

Results

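The genes described here are the growth factor IGF2, 6 insulin-like growth factor (IGF) binding proteins (IGFBP2 to IGFBP7), the RNA-binding proteins IGF2BP2 and IGF2BP3, and the retroelement-derived gene PEG10. They were found by gene name in a table of 27607 genes, and each of the 10 names matched 1 entry. The table holds 5 RNA sequencing libraries from cattle (Bos taurus), labelled brain, skin, lung, heart and limb, with 1 library per label. The labels describe lysed cells whose RNA was pre-amplified on a microfluidic chip, and they give no treatment, genotype, age, number of cells or number of animals for any library. Values were taken as FPKM, a level scaled to transcript length and to the total of mapped fragments. Without replicates there is no error and no p-value, so each difference describes these libraries only.

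IGF2 is a secreted growth factor of fetal tissues that signals through the receptor IGF1R, while the receptor IGF2R carries it to lysosomes for breakdown. IGFBPs bind IGFs outside the cell, prolong their life or keep them from the receptor, and are cut by proteases that free the ligand. IGF2BPs bind messenger RNAs, IGF2 mRNA among them, and IGF2BP3 is called oncofetal because it is abundant in the embryo, mostly silent in adult tissue and present again in tumours. PEG10 derives from a retrotransposon and, like IGF2, is an imprinted gene expressed from the paternal copy.

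The tissue labels were checked first against markers of each tissue. In the brain library 0 of 8 neuron markers were above 0, with SNAP25, SYT1 and STMN2 listed at 0. The skin library had 2 of 7 keratinocyte markers above 0, without KRT5, KRT14 or TP63, and the lung library 1 of 6 alveolar markers, without SFTPC or SFTPB. The heart library had 2 of 8 cardiomyocyte markers above 0, without TNNT2, MYH6 or MYH7, and the limb library 2 of 6 skeletal muscle markers, without MYOD1 or MYOG. The muscle markers above 0 in the limb library, ACTA1 and TNNT1, were both highest there, which goes with the label. Other markers lay under another label. KRT5 was above 0 only under the lung label, at 51.0 FPKM, and SFTPC only under the limb label, at 34.2 FPKM. MYH6 was above 0 only under the brain label, at 2.68 FPKM. The neuron marker MAP2 was at 0 under the brain label and at 4.13 to 13.2 FPKM in the other 4. Since most defining markers were at 0, the labels are used as names of libraries and not as tissues. Between 5109 and 6634 genes were above 0 in a library, and 3.62% to 4.74% of the values above 0 were under 1 FPKM. The values carry no read counts, so a gene listed at 0 may lie below what a library could show. Where a library holds several cells, fewer cells of a type and less RNA per cell cannot be told apart.

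Of the 10 genes, IGFBP4 and IGFBP6 were above 0 in all 5 libraries, IGFBP5 and IGF2BP2 were above 0 in 4, and the other 6 were above 0 in 1 library each. At 1 FPKM or more there were 5 of the 10 under the brain label, against 22.9% of all genes, and 6 under the skin label, against 17.6%. The lung library had 3, against 20.7%, the heart library 4, against 23.2%, and the limb library 5, against 18.4%. These shares cover all 27607 genes, many of them at 0 in every library, while each of the 10 was above 0 somewhere. A higher share for the 10 follows in part from that and is not read as a result. Of the 9877 genes above 0 anywhere, 26.4% were above 0 in all 5 libraries and 24.7% in 1 only. The single-library genes of the family were IGFBP2 under the brain label, IGF2BP3 and PEG10 under the skin label, IGFBP7 under the heart label, and IGF2 and IGFBP3 under the limb label. None of the 10 was above 0 under the lung label alone.

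**Figure D1:**
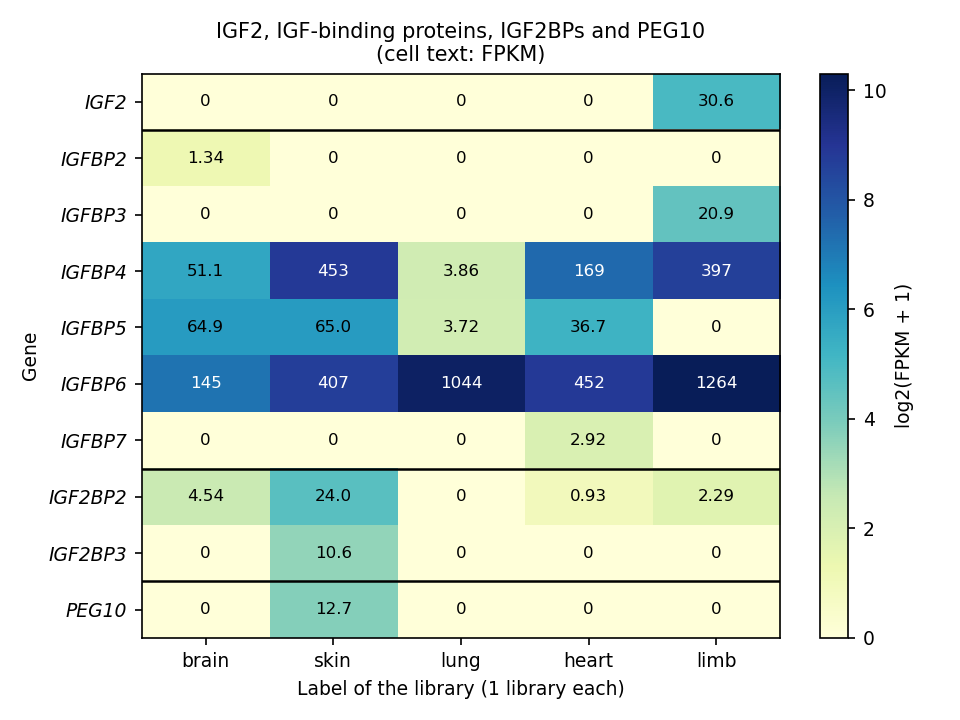
Level of each of the 10 genes (rows) in each of the 5 libraries (columns), coloured by log2(FPKM + 1) with the FPKM value written in the cell; lines separate the ligand, the binding proteins, the RNA-binding proteins and PEG10. IGFBP4 and IGFBP6 fill every column, and IGF2BP2, IGF2BP3 and PEG10 have their highest value under the skin label.

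The ligand IGF2 stood at 30.6 FPKM under the limb label and was listed at 0 in the brain, skin, lung and heart libraries. Within the limb library 47.6% of the genes above 0 had a lower value, so the one library with IGF2 held it at a middling level. IGF1, the other IGF ligand, and INS (insulin), the neighbour of IGF2 in the gene order of the RefSeq annotation of ARS-UCD2.0, were listed at 0 in all 5 libraries. On its other side the nearest protein-coding gene was MRPL23, a subunit of the mitochondrial ribosome, at 343 to 670 FPKM, so the pattern of IGF2 was not shared by the genes beside it.

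The receptors showed another distribution. IGF1R, the signalling receptor, was at 35.0 FPKM under the skin label and listed at 0 in the other 4, including the limb library that held IGF2. IGF2R stood at 5.29 FPKM under the skin label, 4.74 under the heart label, 3.21 under the limb label, 0.96 under the brain label and 0.33 FPKM under the lung label. It was thus low in every library, and its lowest values lay among the smallest of the table. INSR and INSRR, the insulin receptor and its relative, were listed at 0 throughout. Ligand and signalling receptor were therefore not above 0 in the same library.

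IGFBP6, a binding protein that prefers IGF2 over IGF1, was the most abundant of the 10 by mean level, and in each library except the skin one. It stood at 145 FPKM under the brain label, 407 under the skin label, 1044 under the lung label, 452 under the heart label and 1264 FPKM under the limb label. The limb and lung libraries were the high ones, 1.21-fold apart, the skin and heart ones lay close together in the middle, and the brain library was lowest, 8.7-fold below the highest. Among all genes above 0, IGFBP6 ranked 178 under the limb label and 230 under the lung label, and 1077 under the brain label. Its difference between the highest and lowest library was 3.11 on the log2(FPKM + 1) scale. The median over the 5010 genes averaging 10 FPKM or more was 4.91, but those genes were not matched by level. Of genes with a highest value above 1000 FPKM, 95.1% were above 0 in all 5 libraries, against 40.1% from 50 to 200 FPKM. A 0 widens the difference, so IGFBP6 is not read as unusually steady for its level. The IGFBP6 neighbours SOAT2, listed at 0 throughout, and SPRYD3, at most 14.3 FPKM, were far lower.

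IGFBP4, which in most settings holds IGF back from its receptor, ranged more widely. It stood at 453 FPKM under the skin label, 397 under the limb label, 169 under the heart label, 51.1 under the brain label and 3.86 FPKM under the lung label. The skin and limb values were 1.14-fold apart, and the lung value stood alone at the low end, 117-fold below the highest. The span of 6.55 on the log2(FPKM + 1) scale was wider than that of 86.2% of the genes averaging 10 FPKM or more, again not matched by level. IGFBP4 and IGFBP6 thus did not share an order, since the lung library was lowest for the first and the next to highest for the second. TOP2A, a DNA topoisomerase of dividing cells and the neighbour of IGFBP4, was above 0 in the skin and lung libraries only, at 26.7 and 19.9 FPKM.

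IGFBP5, a binding protein that also attaches to the extracellular matrix, was at 65.0 FPKM under the skin label, 64.9 under the brain label, 36.7 under the heart label and 3.72 FPKM under the lung label, and was listed at 0 under the limb label. The first 2 were level with each other and the lung and limb libraries were low. IGFBP2, its neighbour on the same chromosome in the RefSeq annotation, was listed only under the brain label, at 1.34 FPKM, and 5.96% of the genes above 0 there were lower. The adjacent pair therefore differed in level in the 4 libraries where IGFBP5 was above 0.

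IGFBP3, the main carrier of IGFs in blood, was at 20.9 FPKM under the limb label and listed at 0 in the other 4, the same single library as IGF2. Of the genes above 0 in that library, 39.8% were lower. Its neighbour IGFBP1 and IGFALS, which forms a complex with IGFBP3 in serum, were listed at 0 in all 5 libraries, as was IGFBPL1. IGFBP7, which binds IGFs weakly, was at 2.92 FPKM under the heart label and at 0 elsewhere. In the RefSeq annotation IGFBP7 overlaps POLR2B, a subunit of RNA polymerase II. POLR2B stood at 57.8 FPKM under the limb label, 27.9 under the heart label, 23.5 under the skin label, 22.6 under the brain label and 2.43 FPKM under the lung label. It was thus highest in a library with IGFBP7 at 0. The sources used here do not say whether strand was used in counting, so the low IGFBP7 value is uncertain.

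The binding proteins were then taken as a pool, the summed FPKM of IGFBP1 to IGFBP7 within a library. The pool was 263 FPKM under the brain label, 661 under the heart label, 925 under the skin label, 1052 under the lung label and 1682 FPKM under the limb label, a 6.4-fold span. It made up 0.0245% to 0.149% of the summed FPKM of a library. IGFBP6 held 55.3% of the pool under the brain label, 68.4% under the heart label, 75.2% under the limb label and 99.3% under the lung label. In the skin library IGFBP4 held 49.0% and IGFBP6 44.0%, the one library where IGFBP4 led. IGFBP5 held 24.7% under the brain label, more than IGFBP4 with 19.5%, and 7.02% or less elsewhere. Such shares do not depend on the scaling between libraries, but they compare genes per transcript length. The sources used here do not say whether the reads covered whole transcripts or only their ends. The ratio of IGFBP6 to IGFBP4 lay between 0.897 and 3.19 in 4 libraries and was 270.5 under the lung label.

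**Figure D2:**
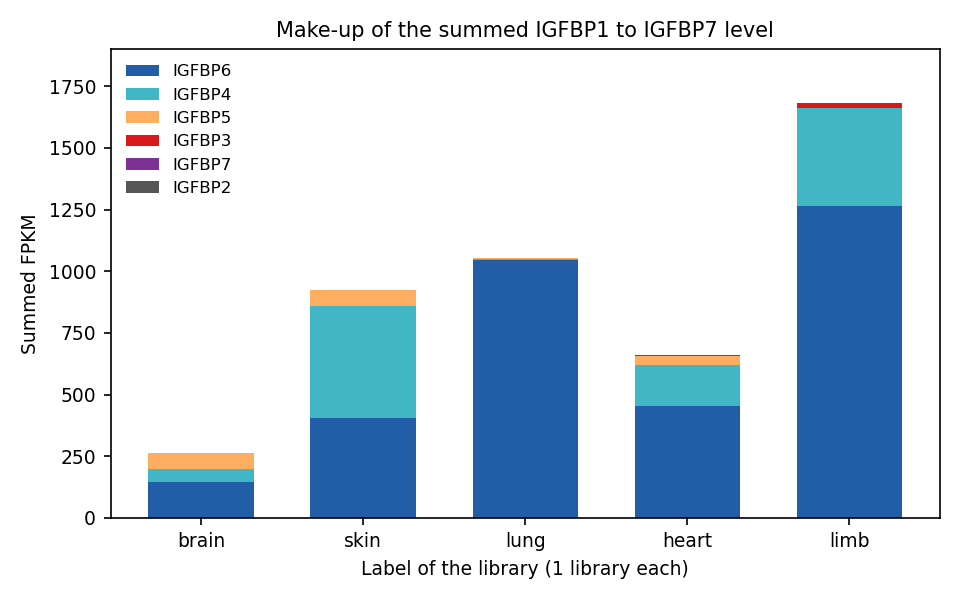
Summed FPKM of the IGF-binding proteins (y axis, linear from 0) in each library (x axis), stacked by gene; 1 library per label, no error bars. The limb bar is tallest at 1682 FPKM, and the lung bar is almost wholly IGFBP6.

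IGF2BP2, an mRNA-binding protein linked to metabolism and growth, was at 24.0 FPKM under the skin label, 4.54 under the brain label, 2.29 under the limb label and 0.93 FPKM under the heart label, and was listed at 0 under the lung label. The skin value was 5.29-fold above the brain one, and the other 3 values above 0 were under 5 FPKM. IGF2BP3 was at 10.6 FPKM under the skin label and at 0 in the other 4. In that library IGF2BP2 exceeded IGF2BP3 by 1.11 on the log2(FPKM + 1) scale. IGF2BP1, the remaining paralog, was listed at 0 in all 5. None of the 3 IGF2BPs was above 0 under the lung label.

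PEG10 followed the same single library as IGF2BP3, at 12.7 FPKM under the skin label and 0 under the other 4. Of the genes above 0 under the skin label, 28.1% were below PEG10 and 25.4% below IGF2BP3, so both were low there. The genes beside PEG10 in the imprinted cluster had other patterns. SGCE (a sarcoglycan) was at 8.87 FPKM under the heart label and 4.42 FPKM under the lung label, and PPP1R9A (neurabin) at 7.99 FPKM under the limb label and 2.20 FPKM under the brain label. Each library thus held 1 of these 3 adjacent genes above 0. All of these values were low, at a level where many genes are listed at 0 in other libraries, so this is a description only.

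Rules of size were used to place these differences beside those of all genes. Enrichment required a value of at least 10 FPKM which, after adding 1, was 4 times the highest of the other 4 libraries or more. In the skin library 3 of the 6 members at 10 FPKM or more were called, IGF2BP2, IGF2BP3 and PEG10, against 8.84% of all genes at that level there. In the limb library 2 of 4 were called, IGF2 and IGFBP3, against 7.99%. Each called member reached 10 FPKM only in the library where it was called. The members were also chosen with earlier results of these data known. The shares of members called are therefore not read as a result about the family. None of 3 was called under the brain label (7.45% of all genes), none of 1 under the lung label (10.2%) and none of 3 under the heart label (8.17%). After adding 1, IGF2 was 31.6 times, IGFBP3 21.9 times, PEG10 13.7 times, IGF2BP3 11.6 times and IGF2BP2 4.52 times the next library. IGF2BP3 and PEG10 lay just above the minimum of 10 FPKM and IGF2BP2 just above the ratio of 4. After adding 5 in place of 1, none of these 3 was called, while IGF2 and IGFBP3 still were. IGF2BP3 also lost its call when each library was scaled to a common total.

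Depletion required all of the other 4 libraries to be at 10 FPKM or more and, after adding 1, at least 4 times the value in question. IGFBP4 was depleted under the lung label, 1 of the 2 members that could be called there, against 9.19% of all genes. IGFBP6 alone could be called in the other libraries and was not, against 2.76% of all genes for the brain label, 12.7% for skin, 4.27% for heart and 11.2% for limb. IGFBP5, low under both the lung and the limb label, could be called in neither by this rule.

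How often a gene is listed at 0 in 4 libraries depends on its level, and the members were set beside all genes of like level. Of the 2235 genes with a highest value above 20 and up to 50 FPKM, which include IGF2, IGFBP3 and IGF2BP2, 18.7% were at 0 in the other 4 libraries. From 10 to 20 FPKM, the level of IGF2BP3 and PEG10, it was 31.7% of 1429 genes. From 2 to 10 FPKM, the level of IGFBP7, it was 50.9%, and up to 2 FPKM, that of IGFBP2, 79.8%. Above 1000 FPKM, where IGFBP6 lies, 1.73% were at 0 in the other 4 and 95.1% were above 0 in all 5. At 10 FPKM or more, the level of IGF2, IGFBP3, IGF2BP3 and PEG10, 167 of 3929 genes were above 0 only under the limb label and 174 of 3844 only under the skin label.

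**Figure D3:**
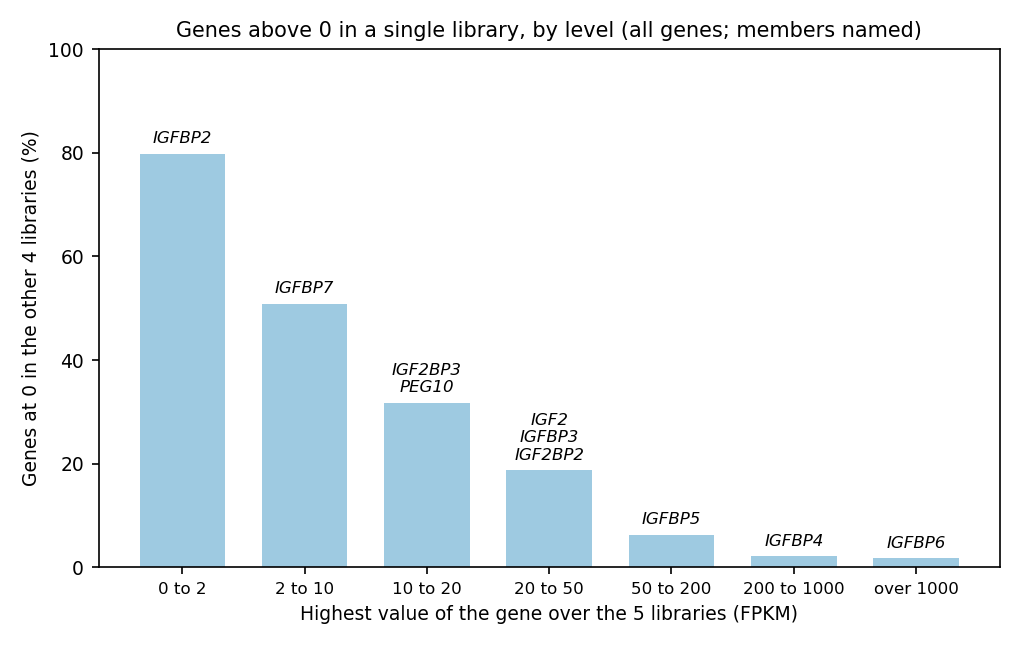
Percent of genes listed at 0 in the other 4 libraries (y axis) by the highest value of the gene over the 5 libraries in FPKM (x axis, bins); bars cover all genes of the table and the names above a bar are the members whose highest value falls in that bin, whatever their values elsewhere. The share goes from 79.8% in the lowest bin to 1.73% in the highest.

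Pairs of libraries were compared in the same way, with a 4-fold ratio after adding 1 and the higher value at 10 FPKM or more. The 10 pairs share libraries, so their counts are not independent. Over all pairs, 34 of the 49 member comparisons at that level passed, against 48.1% of those of all genes. Of the 34, 20 belong to the 5 members called enriched, which the rule itself puts past 4-fold in 4 pairs each. In every pair with the skin or limb library such members pass by that rule. The counts of those pairs are therefore not read against the share of all genes. For brain against heart 0 of 3 passed, against 37.0% of all genes, so IGFBP4, IGFBP5 and IGFBP6 each differed by less than 4-fold between these libraries. Between the skin and limb libraries 6 of 8 passed, against 53.6%, with IGFBP5, IGF2BP2, IGF2BP3 and PEG10 higher under the skin label and IGF2 and IGFBP3 higher under the limb label. Between the skin and lung libraries 5 of 6 passed, against 51.6%, all higher under the skin label, and IGFBP6 was the exception. Between the brain and limb libraries 5 of 5 passed, against 45.7%, with IGFBP5 higher under the brain label and IGF2, IGFBP3, IGFBP4 and IGFBP6 higher under the limb label. The brain and skin libraries had 4 of 6 past the ratio (49.5% of all genes), all higher under the skin label, and the skin and heart libraries 3 of 6 (50.9%). The lung library had 3 of 3 against brain (46.2%), 2 of 3 against heart (48.2%) and 3 of 4 against limb (53.1%), and the heart and limb libraries had 3 of 5 (45.9%). Among members not called enriched, IGFBP6 passed in 2 of 10 pairs, IGFBP4 in 6 of 10 and IGFBP5 in 6 of 9.

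Proteases and inhibitors grouped with the IGFBPs were read from a list of 8 genes, of which 4 were above 0 in at least 1 library. Whether each acts on IGFBPs in these cells was not tested, and for PRSS23 such an action is not assumed. PRSS23, a secreted serine protease, was at 1412 FPKM under the brain label, 1377 under the heart label, 1217 under the limb label, 1093 under the skin label and 168 FPKM under the lung label, where it was called depleted, as was IGFBP4. HTRA1, a serine protease that can cut IGFBP5, was at 48.4 FPKM under the brain label, 14.2 under the limb label, 10.6 under the heart label and 4.70 FPKM under the lung label, and at 0 under the skin label. CTSD, a lysosomal protease, ranged from 22.9 to 88.2 FPKM in 4 libraries and was listed at 0 under the skin label. PAPPA, the protease that cuts IGFBP4, and its relative PAPPA2 were listed at 0 throughout. STC2, an inhibitor of PAPPA, stood at 2.84 FPKM under the heart label and 2.61 FPKM under the limb label. By the rules of size, 0 of the 3 at 10 FPKM or more anywhere were enriched, against 24.1% of all genes, and 2 of the 2 that could be called depleted were, PRSS23 and CTSD, against 29.6%.

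Signalling genes downstream of the receptor were more widely above 0, with 29 of 33 in at least 1 library and 7 in all 5. The adaptors IRS1, IRS2 and IRS4, which link IGF1R and INSR to PI3 kinase, were listed at 0 in every library. EIF4EBP1, a translation repressor controlled by mTOR, was the most abundant at 338 to 883 FPKM, followed by RHEB, the GTPase that activates mTOR, at 236 to 441 FPKM, and HRAS at 41.7 to 189 FPKM. Of the 22 genes at 10 FPKM or more anywhere, 5 (22.7%) were enriched in a library, against 24.1% of all genes, a share near the background. They were PIK3CA at 26.6 FPKM, TSC2 at 26.0 FPKM and PIK3R2 at 12.2 FPKM under the lung label, MTOR at 14.5 FPKM under the skin label and FOXO3 at 16.1 FPKM under the brain label. Depleted genes numbered 4 of 7, against 29.6% of all genes. Among them were the kinase AKT1 and the GTPase NRAS under the limb label, at 10.2 and 0.32 FPKM, and the kinase MAP2K1 under the skin label at 2.10 FPKM.

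**Figure D4:**
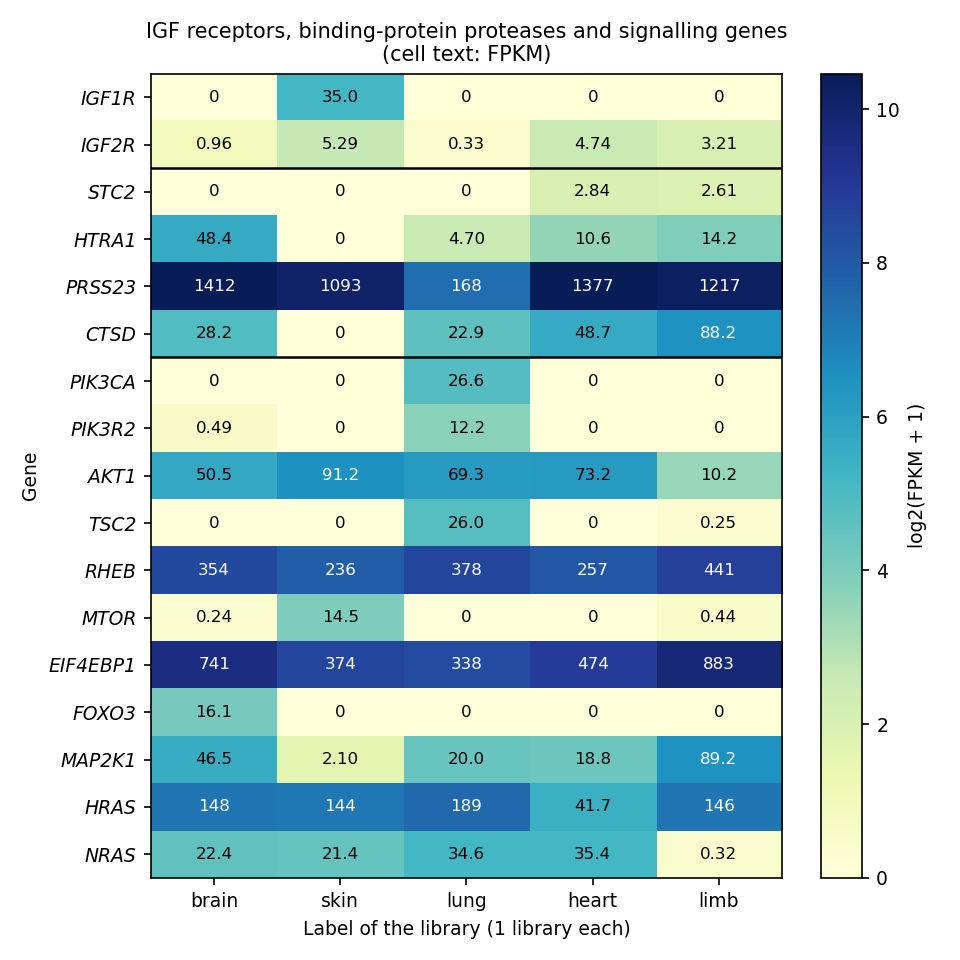
Receptors (top block), proteases and inhibitors grouped with the binding proteins (middle block) and signalling genes (bottom block) by library, coloured by log2(FPKM + 1) with FPKM in the cell; genes at 0 in all 5 libraries are left out, and the bottom block holds the 3 most abundant and genes past a rule of size. IGF1R has a value only under the skin label, while EIF4EBP1 and RHEB are high in all 5 columns.

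Among 14 RNA-binding proteins of the IGF2BP kind and their partners, 10 were above 0 in at least 1 library. LIN28A, LIN28B and HMGA2, which are oncofetal like IGF2BP3 and IGF2BP1, were listed at 0 in all 5. HMGA1, a chromatin protein of growing cells, was at 33.3 FPKM under the lung label, 26.4 under the skin label, 13.2 under the brain label and 1.54 FPKM under the limb label, and at 0 under the heart label. YBX1, an mRNA-binding protein found with IGF2BPs in granules, was at 115 to 234 FPKM, and SYNCRIP, another mRNA-binding protein, at 18.5 to 130 FPKM. ELAVL1, an mRNA stabiliser, was at 0.95 FPKM under the skin label, where it was called depleted, and at 37.4 to 43.5 FPKM in the other 4. SYNCRIP, at its lowest value, was depleted under the limb label, and HNRNPU, a nuclear RNA-binding protein, under the heart label at 7.17 FPKM. Enriched genes numbered 2 of 9 at 10 FPKM or more (22.2%), against 24.1% of all genes, a share near the background. Both were the IGF2BPs already called above. Depleted genes numbered 3 of the 6 that could be called, against 29.6% of all genes.

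Transcripts known to be bound by IGF2BPs were above 0 for 6 of 6 entries in the skin and limb libraries and for 5 of 6 in the other 3. MYC, a growth-promoting transcription factor, was at 62.9 FPKM under the limb label, 43.5 under the heart label, 26.5 under the skin label and 17.6 FPKM under the brain label. It was listed at 0 under the lung label and called depleted there. Depleted genes of this list numbered 1 of the 5 that could be called, against 29.6% of all genes. CD44, a receptor for hyaluronan, was lowest under the skin label at 4.65 FPKM and highest under the limb label at 135 FPKM. ACTB (beta-actin) ranged from 7610 to 16627 FPKM and PABPC1 from 62.6 to 205 FPKM. No one order of libraries was common to these transcripts. Over 6 genes, the median difference from the mean of the other 4 libraries in log2(FPKM + 1) was 1.15 under the limb label, 0.45 under the heart label, 0.31 under the brain label, 0.29 under the skin label and -0.60 under the lung label. The same over the 8694 genes averaging 1 FPKM or more was -0.67, -0.01, 0.15, -0.73 and -0.16 in that order.

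Imprinted genes, the class of IGF2 and PEG10, were above 0 for 13 of 27 entries. Beside those 2, NDN (necdin) was enriched, at 53.0 FPKM under the limb label and 0 elsewhere, the same library as IGF2. Enriched entries were 3 of 9 at 10 FPKM or more (33.3%), against 24.1% of all genes. GNAS, a G protein subunit with 2 entries in the table, was at 238 to 484 FPKM in one and 0 in the other. SNRPN, a splicing protein, was depleted under the skin label at 5.31 FPKM, against 134 to 288 FPKM in the other 4. Depleted entries numbered 1 of the 2 that could be called, against 29.6% of all genes. NAP1L5 was at 61.9 FPKM under the lung label and 32.4 FPKM under the heart label. DLK1, MEST, CDKN1C, PHLDA2 and PEG3 were listed at 0 in all 5 libraries. GRB10, an imprinted adaptor that dampens IGF1R and insulin receptor signalling, was at 22.7 FPKM under the heart label, 18.4 under the lung label and 17.8 FPKM under the brain label. It was listed at 0 under the skin label with IGF1R and under the limb label with IGF2.

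Of 10 retroelement-derived entries, 3 were above 0 somewhere. RTL5 was at 1.48 to 3.18 FPKM in 4 libraries and at 0 under the brain label, and PNMA1, enriched under the brain label at 28.2 FPKM, was listed at 0 elsewhere. RTL1, the imprinted relative of PEG10, was listed at 0 throughout.

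Genes with the pattern most like a member were sought for the 4 members above 0 in at least 4 libraries, among about 3309 named genes averaging 10 FPKM or more. Likeness was the root mean square difference of log2(FPKM + 1) over the 5 libraries after subtracting each gene's own mean. For IGFBP6 it was 0.13 for PPP2R5C (a phosphatase subunit), 0.19 for the helicase DHX32 and 0.32 for the adaptor CRK, and 15 genes lay under 0.5. For IGFBP4 the nearest were SH3BGR at 0.42, HPF1 (a partner of PARP1) at 0.49 and the pseudouridine synthase PUS3 at 0.50. For IGFBP5 they were LZIC at 0.32, GEMIN6 of the SMN complex at 0.46 and GNB1L at 0.49. For IGF2BP2 they were the transcription factor JUND at 0.35, KDSR (sphingolipid synthesis) at 0.42 and PTOV1 at 0.45. With 5 libraries and this many genes such nearness is a description only. Between members, whatever their level, the same measure was 0.098 for IGF2BP3 and PEG10 and 0.21 for IGF2 and IGFBP3, pairs that are each above 0 in the same single library, and 0.82 or more for all other pairs.

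Markers of other cells were set beside the skin and limb libraries, which held most single-library members. Of 7 proliferation markers, 6 were above 0 in both the skin and the lung library, with sums of 751 and 848 FPKM, while 1 was above 0 under the brain label, at 1.13 FPKM, and 0 in the heart and limb ones. Higher under the skin label than under the lung label were UBE2C (372 and 290 FPKM), BIRC5 (227 and 102 FPKM) and TOP2A (26.7 and 19.9 FPKM). Lower under the skin label than under the lung label were CCNB1 (123 and 284 FPKM), RRM2 (ribonucleotide reductase, 0.45 and 148 FPKM) and MKI67 (0.54 and 3.44 FPKM). Of 9 fibroblast markers, 4 or 5 were above 0 in each library, with DCN, LUM, PDGFRB and THY1 at 0 in all. Their sum was 1089 FPKM under the lung label, 1720 under the limb label, 2186 under the brain label, 2355 under the skin label and 3016 FPKM under the heart label. VIM (vimentin), the main part of that sum, was highest under the skin label at 2251 FPKM, while COL1A2, a chain of type I collagen, was at 19.7 FPKM there and at 6 FPKM under the lung label, against 174 to 523 FPKM in the other 3. Under the limb label, with IGF2 and IGFBP3, the skeletal muscle markers ACTA1 (skeletal actin, 37.6 FPKM) and TNNT1 (slow troponin, 18.1 FPKM) were enriched, and the surfactant gene SFTPC was enriched at 34.2 FPKM. The summed muscle list was 55.7 FPKM there and at most 1.57 FPKM elsewhere, with MYOD1, MYOG, CKM and MYH3 at 0. The cardiac actin ACTC1 was also highest there, at 231 FPKM, with 1 of 8 cardiomyocyte markers above 0. Of 5 hepatocyte markers, APOA1 had a value in every library, from 712 to 2307 FPKM, while ALB, TTR, AFP and SERPINA1 were at 0, under the limb label with IGF2 and IGFBP3 as in the others. Of 5 endothelial markers FLT1 alone was above 0, at 15.8 FPKM under the brain label and 34.8 FPKM under the lung label. The part of any of these cells in the levels of the members was not tested.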

How the data were processed

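Gene expression was measured by RNA sequencing in 5 cattle libraries, 1 per tissue label. Per the submitters' processing notes, the tools were bcl2fastq, STAR (alignment) and RSEM (estimation of expression), with the build ARS-UCD1.2. Neither their versions nor the annotation or filters are stated there. The deposited values were taken as FPKM by elimination: between 98.7% and 99.1% of those above 0 in a library were not whole, and each library summed to 1072430 to 1172798, above the fixed total of TPM. Read depth is unknown, so no interval is given, and the lack of replicates leaves no test.

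Gene names were used as the table gives them. Of the members, 10 of 10 were found by symbol in the RefSeq gene table of ARS-UCD2.0, used for gene order only, and no sequences were used here. Rules of size used a minimum of 10 FPKM, a pseudocount of 1 FPKM and a ratio of 4. The text names all members, all ligands and receptors, and of 8 gene lists the 3 genes with the highest mean and those past a rule of size. Some genes that this rule names are not reported here. Other list genes are named for being at 0 or for their known role and were chosen after their values were seen. The members and lists were chosen with earlier results of these data known. The rules were run on simulated data with known changes, as a check of the code only. The simulated data held no gene at 0 in some libraries only, so they do not show how often such genes are called. Python 3.11.15, numpy 2.4.6 and pandas 2.3.3 were used. Alternatives were other scalings, pseudocounts, minimums, ratios and reference libraries.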

Additional observations from a re-analysis of the deposited data

How the results depend on the processing

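Under the 4 rescalings the counts of member calls, the pair count and the differences between highest and lowest library moved by less than 1.5 times. Of the enriched counts of the 8 gene lists, 1 moved: the RNA-binding list had 1 in place of 2 with a common total, an alternative chosen for the lists after seeing the data. They shifted the libraries by up to 0.14 on the log2 scale against their mean, for the heart label by the median ratio. The 5 enriched calls of members became 2 with a pseudocount of 5, which lost IGF2BP2, IGF2BP3 and PEG10, and 3 with a minimum of 20 FPKM, which lost IGF2BP3 and PEG10. A ratio of 8 also lost IGF2BP2, and a common total lost IGF2BP3, while IGF2 and IGFBP3 kept their calls under the limb label under every alternative run. The 1 depleted call, IGFBP4 under the lung label, was kept under every alternative. It became 2 calls with no minimum or without the lung label in the reference (IGFBP5 under the limb label added), without the limb label in the reference (IGFBP5 under the lung label added) and with a ratio of 2 (IGFBP6 under the brain label added). The count of 34 pair comparisons ran from 24 with a pseudocount of 5 to 43 with a ratio of 2.

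Values that rest on a library at 0 moved with the pseudocount. The median difference between highest and lowest library, 4.11 on the log2 scale, was 6.92 with a pseudocount of 0.1 and 2.45 with 5. The log2 ratio of IGF2BP2 to IGF2BP3 went from 2.47 to 5.54 and 0.93 under the brain label, from 0.95 to 3.36 and 0.25 under the heart label and from 1.72 to 4.58 and 0.54 under the limb label. At 10 FPKM or more, 3 members remained under the brain label and 1 under the lung label. Enriched signalling genes numbered 8 with a minimum of 5 FPKM and 2 with 20 FPKM, against 5, and RNA-binding and retroelement-derived genes 1 each with 20 FPKM, against 2 each. No paired analysis was possible because each label has 1 library and no comparison was tested. Read depth is unknown, so values of a few FPKM cannot be told apart from 0 with any stated error.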
